A study of Homo sapiens with 18 samples.

Results

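Ribosome biogenesis factors are the nucleolar and nuclear proteins that make ribosomes without being part of the finished particle, and 35 genes encoding them were listed by name. Each listed gene was looked up by its current or an older symbol and read from the single-gene probe set with the highest mean. In all, 33 of the 35 were measured, out of 19774 genes with such a probe set, and GNL3 and EBNA1BP2 had none that was named. The genes were listed by name and not by a measured value, but with earlier results of these data known. The expression table covered 18 established cell lines labelled as colorectal cancer (CRC), 1 whole-transcriptome array per line hybridised with biotin-labelled total RNA. The labels give no genotype, treatment or tumour subtype, and the medium was the only grouping they gave. CAR1, CL40, HT55, HUTU80, LS180, OUMS23, RKO, SW1463, SW48 and SW948 (n = 10) were grown in DMEM/F-12, and COLO320HSR, HCT116, KM12, LS513, MDST8, NCIH716, RCM1 and SNUC1 (n = 8) in RPMI-1640. Both media held serum, antibiotics, glutamine and HEPES buffer, and the RPMI-1640 also held added glucose and pyruvate. Each line is its own tumour-derived culture measured once, so no value of a single line has a replicate error. The lines of a medium are different cell lines and not repeats of a culture, so medium and line identity cannot be told apart, and p-values measure the spread between lines.

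Ribosomes are assembled in the nucleolus. RNA polymerase I transcribes the long ribosomal RNA precursor, small nucleolar RNPs (snoRNPs) modify it, and separate sets of assembly factors cleave, fold and export the small and the large subunit. The pathway is active in dividing cells and is often raised in colorectal tumours. The transcription factor MYC, which binds the E-box motif CACGTG together with its partner MAX, is known as a regulator of many of these genes.

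All 33 genes were above background, set at a log2 intensity of 5, in at least 1 line, and 32 were above it in every line. The exception was POLR1A, the largest subunit of RNA polymerase I, at 4.95 in LS513. The 33 genes moved together: their mean pairwise Pearson r over the 18 lines was 0.48, beside 0.02 for all genes above background in all lines. RKO, HCT116, SW48, KM12 and HUTU80 were the high lines and HT55, CAR1 and CL40 the low ones. The MYC level followed this order of lines only loosely. The members' median deviation had r = 0.20 with MYC over the 18 lines, and 0 of the 33 genes passed the test of a slope on MYC.

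The E-box was searched in RefSeq promoter windows (build GRCh38.p14), each holding 250 bases before and 50 bases after a start of transcription. The motif reads the same on both strands, so 1 search covers both, and it was set against no other motif. Windows were matched for 30 of the 35 genes, and NOP58, BOP1, NOLC1, RRS1 and RRP12 were not matched. CACGTG was present for 16 of the 30 genes (53.3%), against 2380 of 27275 other genes of the table (8.73%). Among genes above background in all 18 lines it was present for 803 of 5688 (14.1%), and among other ribosome biogenesis factors for 32 of 114 (28.1%). Over all windows of this length the share was 2548 of 35116 (7.26%). Of 17 motifs in the 16 genes, 16 lay within 100 bases of the start and 11 began at or after it.

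The windows of 3 genes on which later results turn are printed 5′ to 3′ on the gene's strand, with CACGTG in capitals. LYAR (minus strand, chr4:4289972-4290271) encodes a nucleolar zinc-finger protein and had the profile closest to the other members. PES1 (minus strand, chr22:30591861-30592160), which encodes a subunit of the PeBoW complex of large-subunit assembly, came next. DKC1 (plus strand, chrX:154762614-154762913), the pseudouridine synthase of the box H/ACA snoRNPs, had the largest MYC slope among genes with a window, and its window holds no CACGTG.
LYAR: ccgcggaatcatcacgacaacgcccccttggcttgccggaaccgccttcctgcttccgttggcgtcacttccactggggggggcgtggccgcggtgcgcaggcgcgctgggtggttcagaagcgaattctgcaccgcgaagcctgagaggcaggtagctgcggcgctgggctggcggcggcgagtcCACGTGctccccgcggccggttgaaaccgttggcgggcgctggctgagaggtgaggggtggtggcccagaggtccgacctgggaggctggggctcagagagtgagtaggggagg
PES1: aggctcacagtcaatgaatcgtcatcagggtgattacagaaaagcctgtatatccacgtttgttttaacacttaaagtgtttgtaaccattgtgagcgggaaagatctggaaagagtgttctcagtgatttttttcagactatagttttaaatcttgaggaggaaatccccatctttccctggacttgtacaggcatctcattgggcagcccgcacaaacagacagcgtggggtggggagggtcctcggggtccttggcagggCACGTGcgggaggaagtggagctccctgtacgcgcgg
DKC1: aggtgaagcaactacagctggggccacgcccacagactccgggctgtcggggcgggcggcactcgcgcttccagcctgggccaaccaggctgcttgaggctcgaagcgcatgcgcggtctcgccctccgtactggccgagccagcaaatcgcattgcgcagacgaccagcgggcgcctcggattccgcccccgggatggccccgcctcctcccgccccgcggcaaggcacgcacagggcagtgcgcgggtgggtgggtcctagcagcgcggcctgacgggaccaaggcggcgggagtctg

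Counting the start base as position 0, the motif began at -64 in this LYAR window, and LYAR had the motif in 1 of its 2 windows. In PES1 it began 13 bases after the start. A match is a description of these letters and not a measured binding site. The median slope was 0.10 log2 units per log2 unit of MYC for the 14 measured genes with it and 0.08 for the 14 without. The median r with the other members was 0.81 with the motif and 0.68 without, given as a description.

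**Figure D1:**
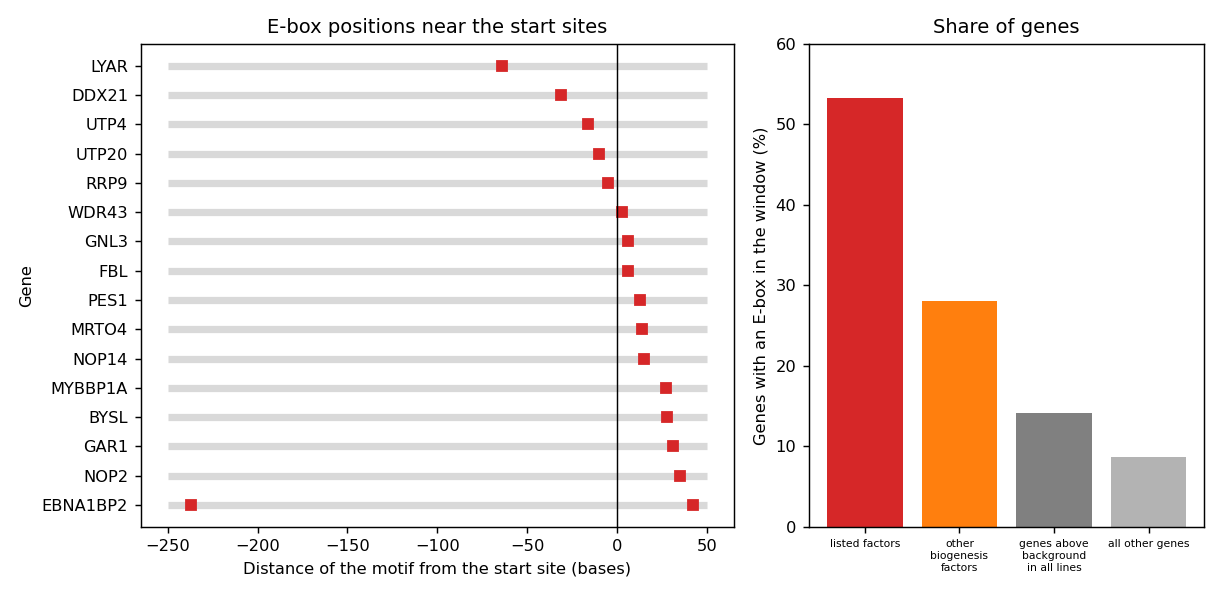
The left panel gives the distance in bases from the start of transcription to each CACGTG motif (red squares) in the windows (grey bars) of the 16 listed genes that hold it. The right panel gives the percent of genes with the motif, 53.3% of the listed factors against 28.1% of other biogenesis factors, 14.1% of genes above background in all lines and 8.73% of all other genes.

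The genes are taken by role, each with its lowest, median and highest log2 intensity over the 18 lines. Probe sets differ in brightness, so levels are not compared between genes. NCL (nucleolin), an abundant RNA-binding protein of the nucleolus, had 11.07 in MDST8, a median of 11.74 and 12.06 in RKO. NPM1 (nucleophosmin), a histone and ribosome chaperone, lay between 12.36 in HT55 and 12.82 in LS513 around a median of 12.61. Its SD of 0.12 was the smallest among the members, close to the upper end of the array scale at 13.71, and NPM1 has processed pseudogenes whose transcripts may share its probes. NOLC1, a snoRNP chaperone, ran from 10.63 in MDST8 over 11.17 to 11.84 in HCT116. DDX21, a nucleolar RNA helicase, ran from 10.78 in SW948 over 11.35 to 11.91 in SW48. These 4 genes differed little between lines, by 1.37-fold for NPM1, 1.98-fold for NCL, 2.20-fold for DDX21 and 2.32-fold for NOLC1.

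LYAR and MYBBP1A were the variable genes of this nucleolar group. LYAR had 8.37 in CAR1, a median of 9.93 and 10.47 in HUTU80 among the DMEM/F-12 lines, and 9.27 in SNUC1, 9.58 and 10.68 in HCT116 among the RPMI-1640 lines. The media overlapped, and CAR1 was the low line. MYBBP1A, a MYB-binding nucleolar protein, had 5.53 in CL40, 6.94 and 7.45 in OUMS23 in DMEM/F-12, and 5.60 in LS513, 6.40 and 7.09 in NCIH716 in RPMI-1640. CL40 and LS513 were low and the media overlapped.

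Both measured subunits of RNA polymerase I varied, with r = 0.68 between them over the 18 lines. POLR1A had 5.09 in CAR1, 5.85 and 7.17 in RKO in DMEM/F-12, and 4.95 in LS513, 6.12 and 6.72 in RCM1 in RPMI-1640. It was dim, and RKO was 1.16 above the panel mean while LS513 was -1.05 from it. POLR1B, the second-largest subunit, ran from 8.25 in CL40 over 9.07 to 9.72 in SW48.

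The snoRNP proteins were the least uniform. Among the box C/D proteins, whose particles methylate ribosomal RNA, the mean r of the 3 pairs was 0.34. FBL (fibrillarin), the methyltransferase, had 10.61 in CAR1, 11.46 and 11.79 in SW948 in DMEM/F-12, and 10.79 in RCM1, 11.32 and 11.66 in HCT116 in RPMI-1640. NOP56 ran from 9.63 in HT55 over 11.00 to 11.83 in KM12, and HT55 stood alone at the low end. NOP58, its partner in the core particle, had a narrower span, 9.72 in LS513, 10.38 and 10.74 in HCT116.

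The box H/ACA proteins, which carry out pseudouridylation, had a mean r of only 0.04 over their 3 pairs. DKC1 had 10.30 in SW948, 10.75 and 11.14 in SW48 in DMEM/F-12, and 10.44 in MDST8, 11.19 and 11.72 in RCM1 in RPMI-1640. GAR1 ran from 8.11 in CAR1 over 9.09 to 9.71 in HCT116, and NHP2 from 11.14 in NCIH716 over 11.62 to 11.94 in MDST8. GAR1 followed the other members (r = 0.81 with their median), and NHP2 did so the least of the 33 genes (r = 0.15), with DKC1 at 0.43. The high lines of the 3 genes also differed, being RCM1, HCT116 and MDST8 in turn.

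Small-subunit factors made up 10 of the measured genes, with a mean r of 0.49 over 45 pairs. TSR1, a late assembly factor, had the largest SD of the members at 0.65, with 8.10 in CL40, 9.64 and 10.57 in RKO in DMEM/F-12, and 9.0 in SNUC1, 9.60 and 10.29 in HCT116 in RPMI-1640. That is a 5.54-fold span over the 18 lines, with CL40 low and RKO high. WDR43, of the early UTP-A complex, had 7.13 in CL40, 8.27 and 9.44 in RKO in DMEM/F-12, and 7.40 in MDST8, 8.08 and 9.36 in HCT116 in RPMI-1640. NOB1, the nuclease that forms the mature end of the small-subunit RNA, had 8.60 in OUMS23, 9.30 and 10.01 in SW48, against 8.49 in MDST8, 9.44 and 10.12 in HCT116. For TSR1, WDR43 and NOB1 the ranges of the media overlapped.

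UTP4 and HEATR1, both of the UTP-A complex, and UTP20, a scaffold of early assembly, followed. UTP4 had 9.66 in CAR1, 10.37 and 11.01 in SW48 in DMEM/F-12, and 10.27 in MDST8, 10.66 and 11.04 in HCT116 in RPMI-1640. HEATR1 had 8.56 in CL40, 9.30 and 10.02 in OUMS23, against 9.21 in KM12, 9.61 and 10.24 in COLO320HSR. UTP20 had 7.21 in HT55, 8.11 and 8.89 in HUTU80, against 7.33 in SNUC1, 8.21 and 8.77 in COLO320HSR. COLO320HSR was thus the high RPMI-1640 line for HEATR1 and UTP20, which was not so for UTP4.

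The remaining small-subunit factors were NOP14, RRP9, RRP12 and BYSL. NOP14, a factor of early processing, ran from 7.11 in CAR1 over 7.92 to 8.64 in KM12. RRP9, a protein of the snoRNP that primes early cleavage, ran from 5.52 in CAR1 over 6.84 to 7.67 in HCT116, and RRP12, an export factor, from 5.61 in OUMS23 over 6.49 to 7.36 in HCT116. BYSL (bystin), needed for late maturation, ran from 7.83 in LS513 over 8.06 to 8.92 in HCT116. HCT116 was the highest line for RRP9, RRP12 and BYSL.

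Of the PeBoW complex, which processes the large-subunit RNA, PES1 ran from 7.0 in HT55 over 7.90 to 8.79 in HCT116, and WDR12 from 9.61 in CAR1 over 10.04 to 10.32 in SW48. BOP1 had 7.66 in HT55, 8.40 and 8.93 in SW1463 in DMEM/F-12, and 7.50 in LS513, 8.71 and 9.39 in HCT116 in RPMI-1640. The 3 pairs within this complex had a mean r of 0.58.

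Other large-subunit factors had the highest mean r of the groups with more than 1 pair, 0.61 over 15 pairs. NOP2, a methyltransferase of the large-subunit RNA, ran from 8.05 in CAR1 over 9.08 to 9.80 in RKO, and NOP16, a nucleolar factor, from 9.66 in HT55 over 10.45 to 10.83 in RKO. RRS1, which helps bring the small 5S RNP to the precursor, ran from 9.08 in HT55 over 9.99 to 10.70 in RKO, and PPAN, a nucleolar protein of early large-subunit assembly, from 6.91 in CAR1 over 7.79 to 8.67 in RKO. RKO was the top line for these 4 genes. The PPAN probe set may also read its readthrough transcript with P2RY11. NIP7 ran from 7.77 in SW948 over 8.50 to 9.19 in HUTU80, and MRTO4, a placeholder for a stalk protein during assembly, from 8.21 in HT55 over 9.36 to 10.16 in HUTU80.

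**Figure D2:**
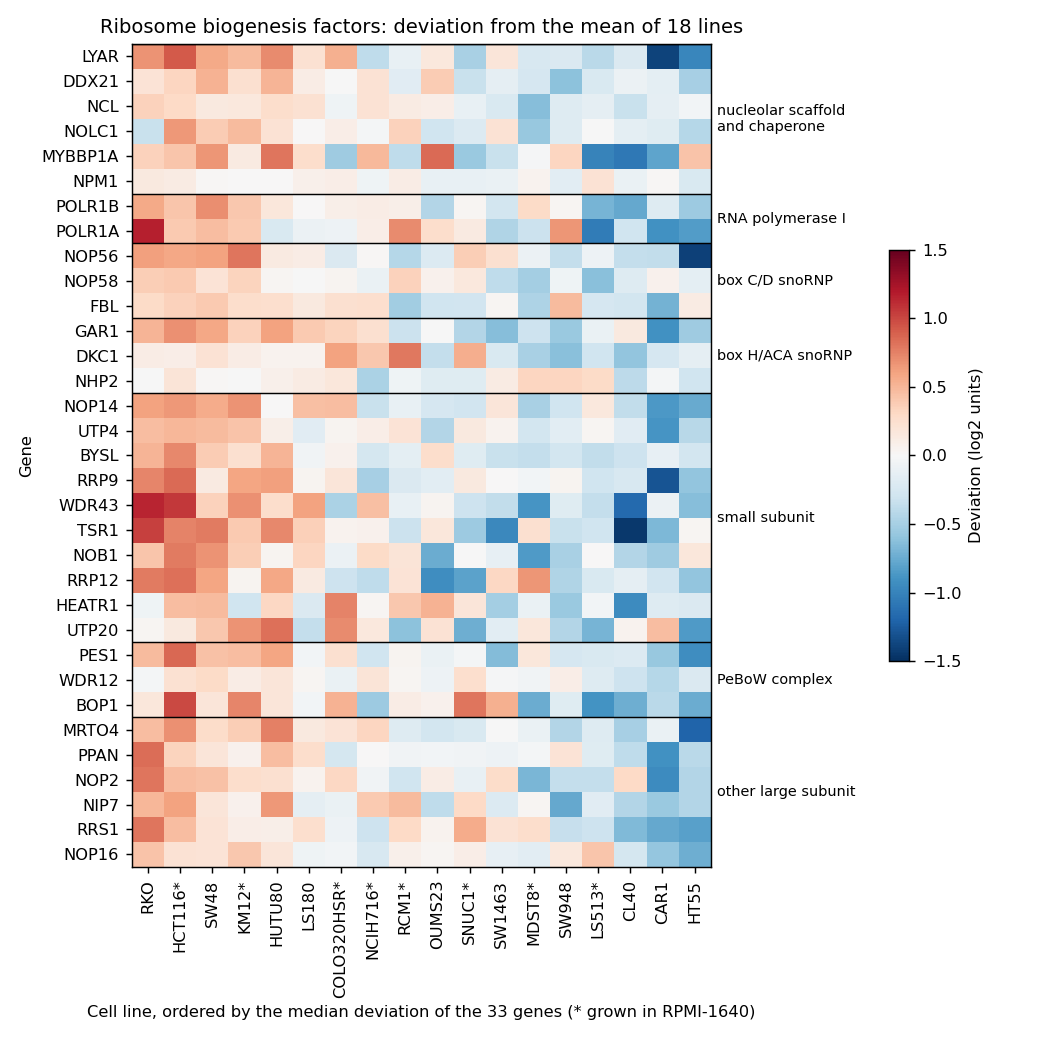
Each cell is the log2 deviation of 1 gene (rows, grouped by role) from its mean over the 18 lines in 1 cell line (columns, ordered by the median deviation of the 33 genes). Most rows are red in RKO, HCT116, SW48, KM12 and HUTU80 and blue in CL40, CAR1 and HT55. The NPM1 row is pale because its SD was only 0.12, and NHP2 shows little of this pattern (r = 0.15 with the other members' median).

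The coherence extended over pairs of the same role and of different roles. Of 528 pairs, 517 had a positive r and 268 an r above 0.5. The mean r was 0.48 for the 85 pairs of the same role and 0.48 for the 443 pairs of different roles, with medians of 0.53 and 0.50. An r above 0.5 was seen in 50 of the 85 and in 218 of the 443. RRP9 and LYAR had the highest r of the 528 pairs (0.90), ahead of NCL and WDR43 (0.87), NOP14 and LYAR (0.86), and NOP2 and LYAR (0.85). NCL with NHP2 and NPM1 with MYBBP1A had the lowest, -0.21 each. These correlations are over 18 lines that share 1 normalization, and are descriptions. With each array centred on its median over genes above background in all lines, the mean r of the members was 0.36 and that of all genes 0.00. Within the 10 DMEM/F-12 lines it was 0.55 and within the 8 RPMI-1640 lines 0.39.

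The gene-by-gene agreement with the rest of the list ran from LYAR (r = 0.87 with the median of the others), PES1 (0.86) and NOP14 (0.83) down to UTP20 (0.41) and NHP2 (0.15). HEATR1, NPM1 and MYBBP1A were also low, at 0.45, 0.45 and 0.49. For the 16 genes with a second probe set above background, the probe sets of a gene had a median r of 0.92, from 0.76 for MRTO4 to 0.99 for TSR1. Some members are neighbours. NOP58 and WDR12, the closest pair, lie on chromosome 2 with 3 coding genes between them (r = 0.41). UTP4, NIP7 and NOB1 lie on chromosome 16 with 4 and 5 coding genes between neighbours (r = 0.73 and 0.62), and NOP14 and LYAR on chromosome 4 with 11 between them (r = 0.86). The mean r was 0.60 over the 32 pairs on 1 chromosome and 0.47 over the 496 others. Copy number was not measured here, and its part in these values was not tested.

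For each line, the 33 genes' deviations from their means over the lines were summarised by their median, taken as its position. RKO and HCT116 stood highest, both at 0.46 log2 units, with 29 and 33 of the 33 genes above the mean. SW48 followed at 0.39 with 33 genes above, KM12 at 0.35 with 31 and HUTU80 at 0.25 with 32. HCT116 was the highest of the 18 lines for 11 genes and RKO for 8. Within RKO the range was wide, from POLR1A at 1.16 and WDR43 at 1.15 to NOLC1 at -0.33.

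The low lines were HT55 at -0.45 with 4 genes above the mean, CAR1 at -0.43 with 3, and CL40 at -0.31 with 3. CAR1 was the lowest line for 9 genes, HT55 for 7 and CL40 for 5. Their lowest genes differed: NOP56 (-1.40) and MRTO4 (-1.20) in HT55, LYAR (-1.39) and RRP9 (-1.30) in CAR1, and TSR1 (-1.44) and WDR43 (-1.17) in CL40. In HT55, MYBBP1A was 0.43 above its mean, and in CAR1 UTP20 was 0.47 above. The other 10 lines lay between -0.23 in LS513 and 0.08 in LS180.

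**Figure D3:**
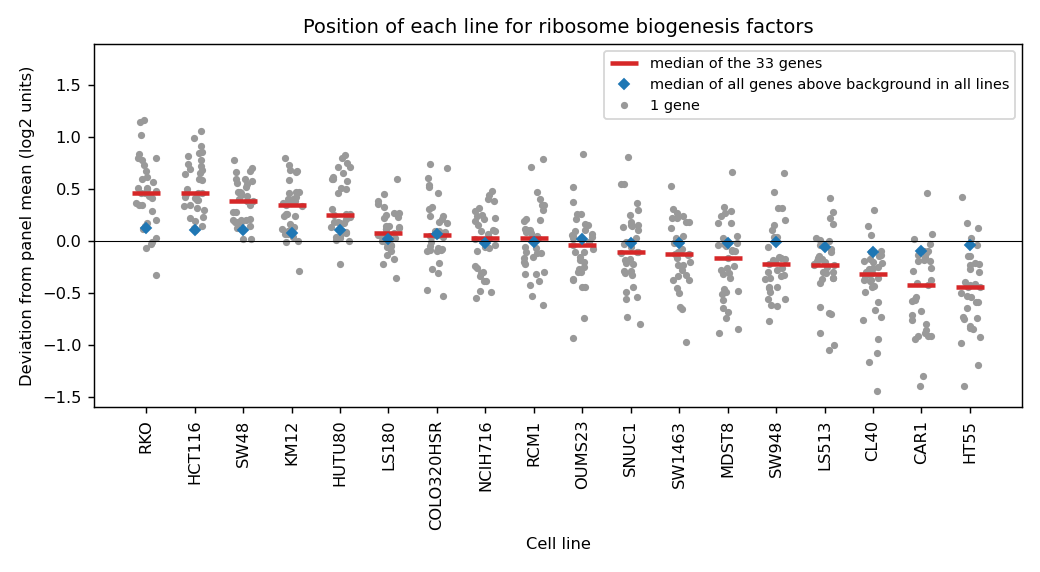
Deviation from the panel mean (log2 units) of the 33 genes (grey points) in each line, with their median (red bar) and the median of all genes above background in all lines (blue diamond). The red bars fall from 0.46 in RKO and HCT116 to -0.45 in HT55, while the diamonds stay between -0.11 and 0.12.

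The median of all genes above background moved the same way on a smaller scale. It was 0.12 in RKO, 0.11 in HCT116, -0.10 in CAR1 and -0.11 in CL40, and over the 18 lines it had r = 0.92 with the members' median. Centring subtracted between -0.12 (CL40) and 0.09 (HCT116) log2 units from an array, and no line changed sign. RKO then stood at 0.38, HCT116 at 0.37, CAR1 at -0.34 and HT55 at -0.41, and CL40 moved the farthest, to -0.19. Bulk RNA averages over a culture, so fewer cells with a high level and less RNA per cell cannot be told apart.

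MYC was measured at 9.42 in MDST8, a median of 11.62 and 13.09 in COLO320HSR, a line known for amplified MYC. The DMEM/F-12 lines ran from 10.08 in CL40 over 11.39 to 11.85 in SW1463, and the RPMI-1640 lines had a median of 11.77. The media overlapped. MYC was read by 1 probe set above background, so no second one checks it.

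MYC level and the position of the ribosome biogenesis factors often went apart. COLO320HSR, the highest line for MYC, stood at 0.06, and SNUC1, the second at 12.39, at -0.11. HT55, of the low lines, ranked 7 of 18 for MYC, and KM12, of the high ones, ranked 14. At the low end of MYC, CL40 (-0.31) and CAR1 (-0.43) were low for both. MDST8, the lowest line for MYC, ranked 13 of 18 for the members at -0.16 and was not among their low lines. OUMS23, at 10.23 lower in MYC than CAR1, stood mid-panel at -0.04. The r of 0.20 between MYC and the members' median (Spearman rho 0.17, n = 18) was 0.23 over the DMEM/F-12 lines and 0.21 over the RPMI-1640 lines. Without MDST8 and CL40, the 2 lines farthest from the median MYC level, it was 0.05, and after array centring 0.08.

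**Figure D4:**
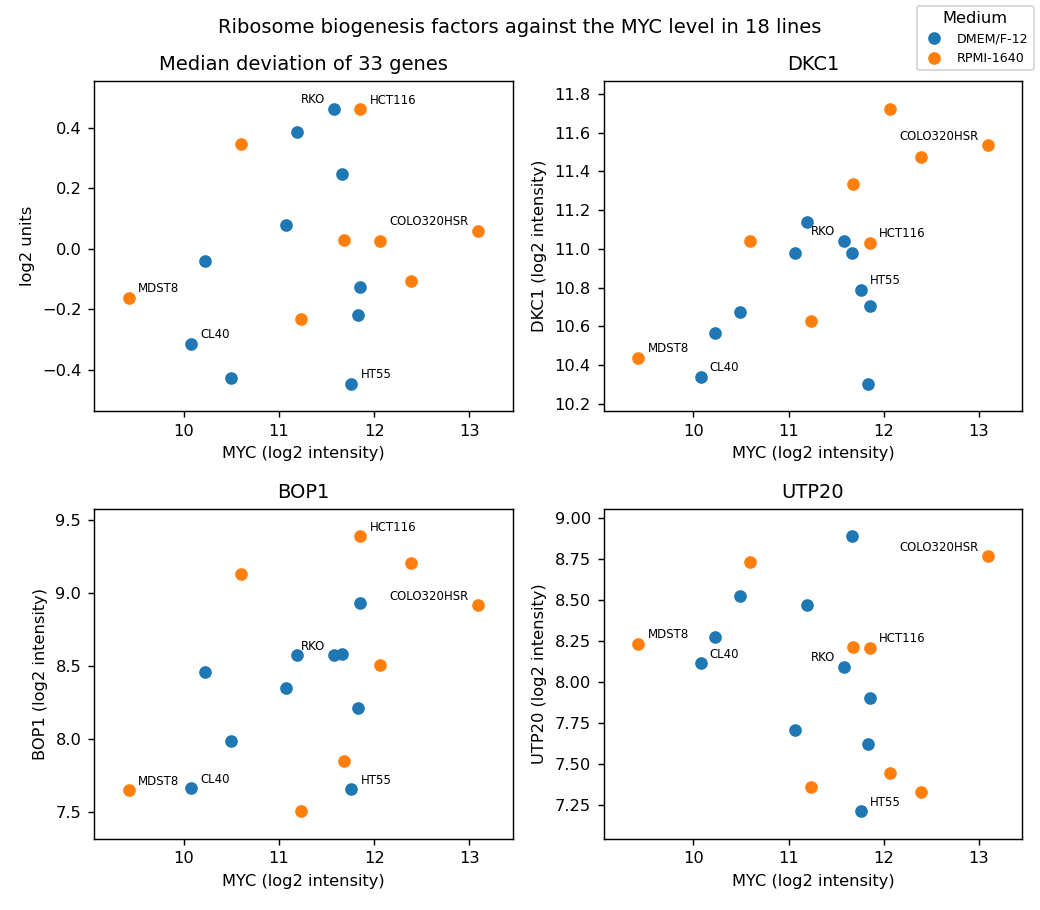
Each point is 1 of the 18 lines, coloured by medium, with the MYC log2 intensity on the horizontal axis and on the vertical axis the median deviation of the 33 genes, or the log2 intensity of DKC1, BOP1 or UTP20. COLO320HSR at 13.09 for MYC lies at 0.06 in the first panel, and the slope is positive for DKC1 (r = 0.66) and negative for UTP20.

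Each gene was fitted with a slope on the log2 MYC level by limma, with Benjamini-Hochberg adjustment over 12841 genes. At adjusted p under 0.05, 0 of 33 members were called, against 0% of all genes in either direction. At unadjusted p under 0.05, 3 members had a positive slope (BOP1, DKC1 and NOB1) and 0 a negative one, against 4% and 4.15% of all genes. The slope was positive for 30 of 33 members (90.9%) and for 6893 of all genes (53.7%), with medians of 0.10 and 0.02. After array centring it was positive for 23 members (69.7%) and 47.1% of all genes, with medians of 0.05 and -0.01. Without MDST8 and CL40 it was also positive for 23. The 3 members at unadjusted p under 0.05 became 1 after array centring, without MDST8 and CL40 together, or without HCT116, CL40, MDST8 or CAR1 alone, and 5 without KM12. Leaving out another single line left 2 or 3.

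DKC1 had a slope of 0.30 (SE 0.085, limma adjusted p = 0.450, the smallest among the members), with a 95% interval of 0.125 to 0.479. Its r with MYC was 0.66 (Spearman 0.60) over the 18 lines, 0.33 over the DMEM/F-12 lines and 0.82 over the RPMI-1640 lines, where RCM1, SNUC1 and COLO320HSR were high for both genes. BOP1 had a slope of 0.31 (limma adjusted p = 0.579) and NOB1 of 0.24 (limma adjusted p = 0.598). Like MYC, BOP1 lies on chromosome 8, as does RRS1, and the part of shared copy number was not tested. HEATR1 (0.19), FBL (0.17) and UTP4 (0.16) followed, with limma adjusted p of 0.720, 0.662 and 0.716. UTP20 had the most negative slope, -0.12 (limma adjusted p = 0.908). For 32 of the 33 genes the upper 95% bound was under 0.5, and BOP1 had the exception at 0.61.

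The media were compared with the same limma procedure over 12842 genes. Again 0 of 33 members were called at adjusted p under 0.05, against 0% of all genes. The difference DMEM/F-12 minus RPMI-1640 was positive for 8 of 33 members (24.2%), against 49.4% of all genes. Its median was -0.10 over the members, against -0.00 for all genes. DKC1 was the 1 member at unadjusted p under 0.05 (0 members higher and 1 lower in DMEM/F-12, against 1.04% and 1.47% of all genes), at -0.40 (SE 0.17, limma adjusted p = 0.999). For the difference in MYC slope between media, 0 of 33 members were called in the limma interaction with Benjamini-Hochberg adjustment, and 0 had an unadjusted p under 0.05, against 3.08% and 1.96% of all genes for a steeper slope in either medium.

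Other genes of ribosome production moved in separate ways. The other ribosome biogenesis factors, 128 measured of 130 listed, followed the members line by line, with r = 0.97 between the medians of the lists over the 18 lines (0.96 after array centring). Of these, 0 of 127 tested were called with MYC by limma, 92 had a positive slope (72.4%, against 53.7% of all genes), and 74 after centring (58.3% against 47.1%). At unadjusted p under 0.05 there were 6 positive slopes (4.72%, against 4% of all genes) and 1 negative one. RRP7A, KRR1, TAF1A and POLR1E had their largest SDs. The 69 cytosolic ribosomal proteins, the structural parts of the ribosome, did not share the order of lines, at r = -0.05. Their medians stayed between -0.10 in OUMS23 and 0.10 in SW1463, with a median SD of 0.12 against 0.44 for the members. At a median intensity of 12.89 they sat near the top of the scale. After array centring the r was -0.74, so its size rests on the scaling.

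**Figure D5:**
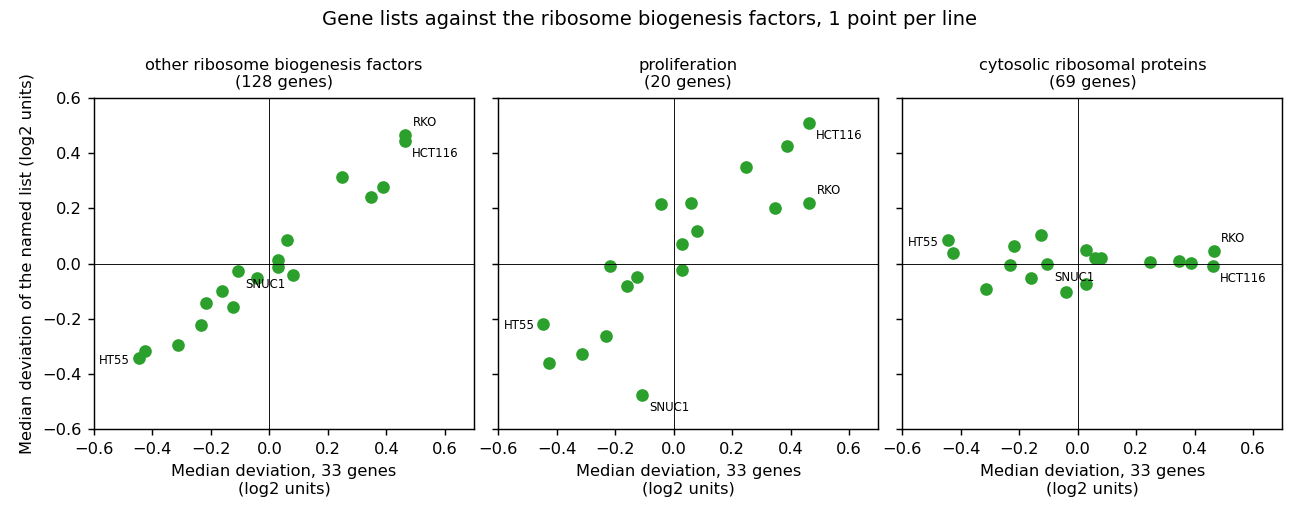
Each point is 1 of the 18 lines, with the median deviation (log2 units) of the 33 members on the horizontal axis and that of another gene list on the vertical axis. Other biogenesis factors follow the members (r = 0.97), proliferation genes do so with SNUC1 low (r = 0.84), and cytosolic ribosomal proteins stay near 0 (r = -0.05).

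Proliferation genes (20 measured) had r = 0.84 with the members over the 18 lines (0.78 after array centring), and other MYC targets (23 measured) r = 0.81 (0.72). The median of the 6601 other genes above background in all lines had r = 0.92, and 0.59 after centring on nearly the same genes. SNUC1 was lowest for proliferation genes at -0.48 while its members' median was -0.11. Taken singly, 17 of the 20 proliferation genes had a positive r with the members' median, with a median r of 0.61 against 0.14 for the 6601 genes. The range ran from -0.30 for TOP2A, a topoisomerase of dividing cells, to 0.79 for MCM7, a subunit of the replicative helicase, both named after their values were seen. In the limma fit on MYC, 0 of the 20 proliferation genes and 0 of the 23 targets were called, with 2 (10%) and 1 (4.35%) at unadjusted p under 0.05, all with positive slopes, against 4% of all genes. The slope was positive for 13 (65.0%) and 21 (91.3%) of them, and for 8 (40.0%) and 17 (73.9%) after centring. The largest SDs were those of MCM2, MKI67, AURKB and MCM5 among proliferation genes and PPAT, ODC1, CAD and TERT among MYC targets.

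Among 6601 other genes above background in all lines, MYC ranked 2937 by its r with the members' median. The 10 genes most like the members over the 18 lines were PRPF39 (r = 0.92), NUTF2 (0.92), EIF5A (0.91), MAK16 (0.90), NAF1 (0.89), LTV1 (0.89), CTU2 (0.88), CHORDC1 (0.88), NLE1 (0.88) and SMU1 (0.88). MAK16, LTV1 and NLE1 belong to the list of other ribosome biogenesis factors, and NAF1 is an assembly factor of box H/ACA snoRNPs. The median r of the 6601 genes was 0.14, and 292 exceeded 0.7.

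The labelled cell type was set against marker genes. The 5 epithelial markers (EPCAM, CDH1, KRT8, KRT18 and KRT19) were all at or below background in COLO320HSR, and the 6 intestinal markers (CDX1, CDX2, VIL1, CDH17, KRT20 and LGALS4) in MDST8, CAR1 and OUMS23. By median deviation, the epithelial list was lowest in MDST8 (-6.29), COLO320HSR (-6.27), HUTU80 (-5.63) and RKO (-5.35). The intestinal list was lowest in SW48 (-3.94), RKO (-3.81), MDST8 (-3.75), HUTU80 (-3.69), OUMS23 (-3.66), CAR1 (-3.52) and HCT116 (-3.41). KM12, also a high line for the members, stood at 0.77 for it. Of other cell types, 1 of 3 measured leukocyte markers exceeded background in any line (PTPRC, at most 6.68). So did 1 of 3 endothelial markers (CDH5, at most 5.87). The 3 of 4 fibroblast markers that did so (DCN, LUM and FAP) were not all dim, with a highest level of 11.30. By median deviation, HUTU80 was highest for the fibroblast list (4.73), before NCIH716 (2.78) and MDST8 (1.64). Beside the members' median, the intestinal markers had r = -0.51 over the 18 lines, and -0.38 without RKO and HCT116. The epithelial markers had r = -0.34, and the part of either in the members' values was not tested.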

How the data were processed

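Total RNA of 18 lines was measured on 1 array each. The authors deposited log2 intensities, and the submitters' processing notes name RMA and affy, with no version in the sources at hand. RMA makes arrays alike in distribution, and array intensities compress differences near both ends of the scale. Of 54613 probe sets, 40914 had 1 gene, 864 several and 12835 none; symbols of 40858 were updated through Entrez IDs. Array medians were 3.65 to 3.69, and values ran from 2.31 to 13.71; the number of arrays limits the precision. A log2 value of 5 was taken as background, and genes above it in at least 1 line (12842) were tested, MYC itself excepted in the MYC fit. Slopes and differences were fitted with limma 3.58.1 (trend) in R 4.3.3 with Benjamini-Hochberg adjustment; the fit was tested on simulated data. Other steps used Python 3.11.15, pandas 2.3.3, numpy 2.4.6 and scipy 1.17.1. Media come from the labels' growth protocol. Full values are given for the 6 members with the largest SD and the 6 with the largest MYC slope; outside the list, 4 genes per list by SD and the 10 most alike are named. Members and lists were chosen with earlier results of these data known. Alternatives were other probe sets, array centring, other filters, variance models and covariates, and leaving out lines.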

Additional observations from a re-analysis of the deposited data

Results flagged for a closer look

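The 33 members, MYC and the members' median deviation were each examined within each medium for a single line that stood apart from the rest, measured as its gap to the nearest line over the whole range (Dixon's criterion). Over 70 such groups, 66 of them of members, 3 lines did so, all for members, where chance gives about 1 in 20. MDST8 was low for NCL among the RPMI-1640 lines, at 11.07 with the nearest line at 11.57. HT55 was low for NOP56 among the DMEM/F-12 lines, at 9.63 with the nearest at 10.65. LS513 was low for POLR1B among the RPMI-1640 lines, at 8.32 with the nearest at 9.04.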

How the results depend on the processing

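The count of members called with MYC, between media or for the interaction was 0 under every alternative run with limma. Coherence, 0.48, was 0.36 after array centring, 0.55 within DMEM/F-12 and 0.39 within RPMI-1640 (both media chosen after seeing the data), and 0.43 to 0.50 leaving out each line. Positive MYC slopes fell from 30 members to 25 without CL40. The slope of MYBBP1A turned to -0.049 after array centring and -0.20 without MDST8 and CL40, and ran from -0.11 to 0.10 leaving out each line. That of TSR1 turned to -0.0033 and -0.099, and ran from -0.092 (without CL40) to 0.13. That of WDR43 turned to -0.22 without MDST8 and CL40. The cause was not tested. RCM1's position changed sign, to -0.05, with the mean of all probe sets. No paired analysis was possible because each line was grown in 1 medium and the 2 media hold different lines. Signal over background limits POLR1A most, at 4.95 in LS513.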

Other observations

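The genes least like the ribosome biogenesis factors over the 18 lines were CREBL2 (r = -0.84 with the members' median), TRIM44 (-0.82), CHMP3 (-0.81), TM9SF2 (-0.81) and KRCC1 (-0.80), named after their values were seen. CHMP3 is a subunit of the membrane-remodelling ESCRT machinery.

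In the MYC and MAX network, MYCN had the largest SD. It was above background in 4 lines and reached 10.03 in CAR1, which was among the low lines for the ribosome biogenesis factors at -0.43. MXD1, a MAX partner that opposes MYC, ran from 4.46 in SW48 to 9.0 in SNUC1, and MYCL from 3.89 in NCIH716 to 8.72 in HT55. The median of the 13 network genes had r = -0.03 with that of the ribosome biogenesis factors (-0.20 after array centring). With MYC by limma, 0 of 12 tested were called and 9 had a positive slope (75.0%, against 53.7% of all genes). At unadjusted p under 0.05, 1 had a positive slope (8.33%, against 4% of all genes).

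Among the cytosolic ribosomal proteins, 0 of 69 were called with MYC by limma. The slope was positive for 57 (82.6%, against 53.7% of all genes), and for 37 (53.6% against 47.1%) after array centring. At unadjusted p under 0.05, 9 had a positive slope (13.0%, against 4% of all genes). The median of the 69 proteins had r = 0.52 with MYC over the 18 lines, without array centring. Their median slope was 0.031 without centring and 0.004 with it, so the size of this relation rests on the scaling. RPL23, RPL31, RPS26 and RPL36A had the largest SDs of this list. RPL31 ran from 6.44 in NCIH716 to 9.45 in LS180.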
